A study of Mus musculus with 8 samples.

Results

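The MHC class I antigen-processing pathway was followed through 10 listed genes: the heavy chains H2-K1, H2-D1 and H2-T23, the light chain B2m, the transporter and loading genes Tap1, Tap2 and Tapbp, and the proteasome genes Psmb8, Psmb9 and Psme1. Members were the non-control probes whose gene name in the scanner files was one of these, and 9 of the 10 genes had such a probe, with 15 probes among the 41174 of the array. H2-D1 had none under that name and has no value in what follows. All 15 probes were well above background in both channels of every array, and each gene was read at its brightest probe as 1 of 20002 features tested, with its other probes given beside it.

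MHC class I molecules carry short peptides from inside the cell to its surface, where cytotoxic T cells and NK cells inspect them. Proteasomes cut the peptides, the TAP transporter pumps them into the endoplasmic reticulum, and tapasin helps to load them onto a heavy chain paired with beta-2 microglobulin. The genes are expressed in nearly all nucleated cells, lymphocyte precursors included, and most of them are raised by interferons through factors of the IRF and STAT families.

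The cells were Pax5-/- pro/preB cells from mouse bone marrow, grown with IL-7 on an irradiated layer of OP9 stromal cells. Pax5 is needed for commitment to the B lineage, and all groups lacked the mouse gene. The named RNAs came from clone 4, a line of 1 clone with huPax5 and rtTA, given 10, 300 or 1000 ng/ml doxycycline, and from Pax5sz2 cells, with rtTA but no huPax5, for which the labels state doxycycline treatment and no dose. Each was hybridised on 2 arrays, with the dyes swapped, against RNA of clone 4 without doxycycline (0 ng/ml), so every ± is the SD of 2 technical arrays of 1 RNA sample. There were no replicate cultures, and p-values over the doses measure only the spread between these RNA samples, which may be technical. The comparisons share their control and are not independent. A log2 ratio above 0 means a higher level in the named RNA, and a log2 ratio of 1 is 2-fold.

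On the 1000 ng/ml arrays 40.4% to 45.1% of a channel's spots were well above background, and on the 6 other arrays 59.5% to 75.5%, by unlike thresholds. The direction of the 1000 ng/ml ratios is not settled: they were scanned in another batch with another protocol, and over all probes they ran against the 300 ng/ml ratios (r = -0.36 where the named RNA carried Cy5 and -0.46 where it carried Cy3; these are correlations across genes, not across replicates). Their values are given as labelled, their sign would be opposite if turned, and for these arrays batch and dose cannot be told apart. On the first 300 ng/ml array, 97 bright spots in the outermost 10 rows at one end had a median log2 ratio of -1.15, against -0.075 for the 2045 bright spots elsewhere. In the scanner's own detrended signals those medians were 0.17 and -0.053.

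Sequence before the start sites shows what these genes share outside the arrays. RefSeq sequence (GRCm38.p6) was held for 9 of the 10 genes (not Tap2), and the 250 bases before each start were searched on both strands for AANNGAAA (a core bound by IRF factors), GGGATTCCC (a form of the kappa B site), CCAAT and TGACG (the core of the X2 box). H2-K1 and H2-D1 are shown because all 4 motifs occur before them, B2m because it has the IRF, X2 and CCAAT letters without the kappa B site, and the Tap1 stretch because it lies between the starts of 2 members that are read in opposite directions. Capitals mark the matches, which do not overlap in these sequences, and each sequence is written on the strand of the gene named.
H2-K1, chr17:34000430-34000457, minus strand, from 124 to 97 bases before its most downstream annotated start: GGGATTCCCcatctccacagTTTCACTT
H2-D1, chr17:35262844-35263093, plus strand, to the base before the start: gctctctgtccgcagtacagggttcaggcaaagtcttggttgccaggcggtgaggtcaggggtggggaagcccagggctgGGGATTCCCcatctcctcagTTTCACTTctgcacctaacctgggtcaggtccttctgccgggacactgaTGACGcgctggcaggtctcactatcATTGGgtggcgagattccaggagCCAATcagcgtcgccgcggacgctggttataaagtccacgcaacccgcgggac
B2m, chr2:122147437-122147686, plus strand, to the base before the start: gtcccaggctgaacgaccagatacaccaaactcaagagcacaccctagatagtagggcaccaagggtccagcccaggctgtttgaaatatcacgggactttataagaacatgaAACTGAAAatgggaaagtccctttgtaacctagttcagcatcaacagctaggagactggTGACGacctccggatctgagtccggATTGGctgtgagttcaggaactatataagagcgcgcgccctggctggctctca
Tap1 to Psmb9, chr17:34187331-34187555, plus strand of Tap1, all 225 bases between the starts: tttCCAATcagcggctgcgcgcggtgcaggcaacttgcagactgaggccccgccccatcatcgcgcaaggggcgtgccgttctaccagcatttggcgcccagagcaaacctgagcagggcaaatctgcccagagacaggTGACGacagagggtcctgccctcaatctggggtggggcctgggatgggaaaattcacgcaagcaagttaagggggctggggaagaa

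The kappa B letters were found before 2 of the 9 members (H2-K1 and H2-D1) and before 0.352% of the 27025 genes with such a sequence. The stretch from the kappa B site to the IRF core was equal in H2-K1 and H2-D1 at 27 of 28 bases. The IRF core letters stood before 4 members (H2-K1, H2-D1, H2-T23 and B2m), against 23.9% of all genes. TGACG stood before 5 members, against 19.8% of all genes, and CCAAT before 7, against 37.5%. Tap1 and Psmb9 hold the same TGACG, 86 to 82 bases before the start of Tap1 and 144 to 140 bases before that of Psmb9. These matches describe letters, not bound sites.

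The mean ratios of the pathway genes stayed within 2-fold of clone 4 without doxycycline, except for Psmb8 with 300 ng/ml and Tap2 with 1000 ng/ml, and no member passed any test over all RNA samples. At 300 ng/ml and in Pax5sz2 most members lay below the control, with 1000 ng/ml as labelled all 9 lay above it, and with 10 ng/ml they were divided. At least 2-fold on both arrays in the same direction was reached by Tap2 with 1000 ng/ml, higher as labelled, and by 0 members in the 3 other comparisons. In either direction that size was reached by 1.87% of all features with 10 ng/ml, 3.67% with 300 ng/ml, 2.57% with 1000 ng/ml and 5.15% in Pax5sz2. At a size of 1.5-fold on both arrays, 0 members passed with 10 ng/ml (3.13% of all features were higher by it and 5.22% lower). With 300 ng/ml 0 were higher (4.98%) and 3 lower (7.55%). Of these 3, Psmb8 and Psme1 have spots in the outermost 10 rows, whose bright spots were low on the first 300 ng/ml array. In the processed signals Psmb8 lay at 0.015 and -0.80 and Psme1 at -0.57 and -0.42, so neither reached 1.5-fold on both arrays. Under loess Psme1 lay at -0.59 and -0.66, so it changed little on that first array and mainly on the second. With 1000 ng/ml as labelled 3 were higher (4.78%) and 0 lower (2.05%), and in Pax5sz2 0 were higher (6.42%) and 2 lower (7.55%).

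Both arrays lay above 0 for 5 of 9 members and below 0 for 3 with 10 ng/ml, where 38.5% and 36.0% of all features did so. At 300 ng/ml, 1 was above and 7 below (35.6% and 35.1% of all features). At 1000 ng/ml, 9 were above and 0 below (33.7% and 30.5%). In Pax5sz2, 1 was above and 8 below (41.9% and 35.2%). All arrays of 2 doses lay on opposite sides of 0 for 3 of 9 members between 10 and 300 ng/ml (4.54% of all features), for 7 between 300 and 1000 ng/ml (35.9%) and for 3 between 10 and 1000 ng/ml (32.7%). The members' median log2 ratio was 0.16 with 10 ng/ml, -0.31 with 300 ng/ml, 0.71 with 1000 ng/ml and -0.41 in Pax5sz2, beside medians of 0.014, 0.0033, 0.0038 and 0.026 over all features in that order. With each array centred on its median alone, the members' medians were 0.53, -0.027, 0.43 and 0.079, and in Pax5sz2 5 members then lay above 0 and 4 below. That centring moved the median of all features in Pax5sz2 to 0.15, so relative to all features the members' median was still lower there. The scanner's processed signals gave 0.16, -0.19, 0.68 and -0.36.

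**Figure D1:**
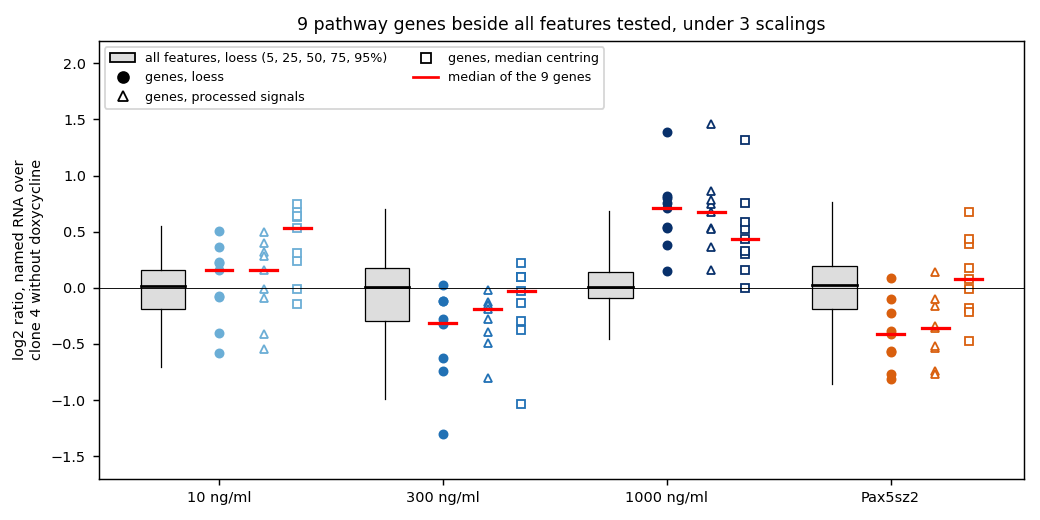
Log2 ratios of the 9 pathway genes (symbols; red bar, their median) beside all 20002 features (box, 25th to 75th percentile; whiskers, 5th and 95th; loess scaling) for each named RNA over clone 4 without doxycycline. Under loess the genes' median is 0.16, -0.31, 0.71 and -0.41 from left to right, and centring each array on its median moves it to 0.079 in Pax5sz2.

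**Figure D2:**
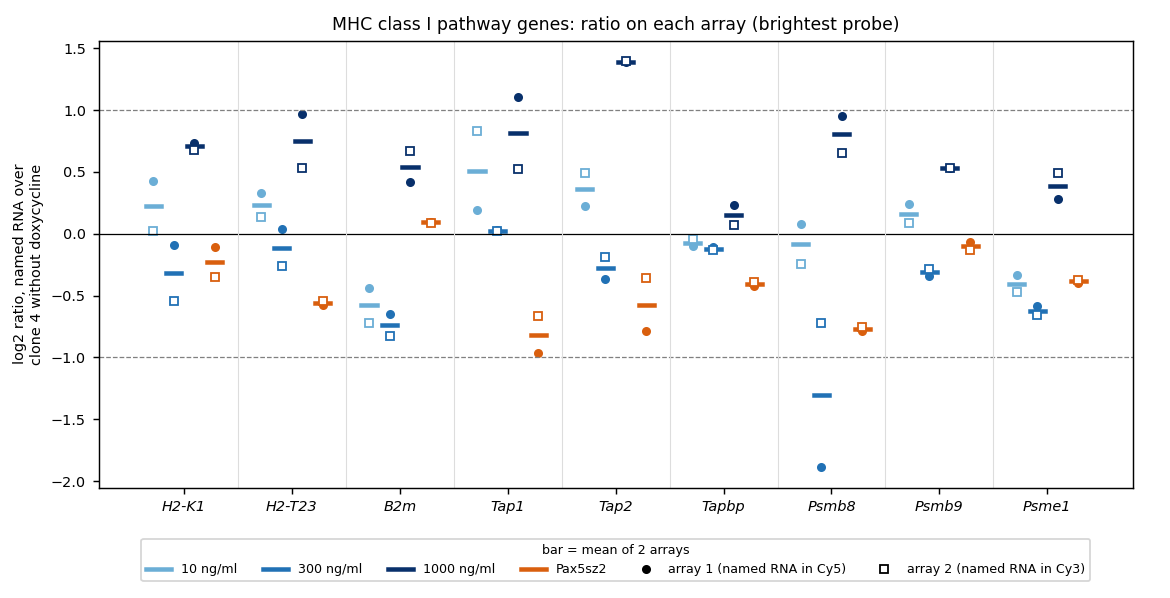
Log2 ratio of each pathway gene's brightest probe on each array (circle, named RNA in Cy5; square, in Cy3; bar, mean of the 2 arrays); dashed lines mark 2-fold. Tap2 with 1000 ng/ml has both arrays beyond a dashed line, and Psmb8 with 300 ng/ml has its 2 arrays far apart, at -1.89 and -0.72.

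The heavy chains come first. H2-K1 encodes a classical class I heavy chain, the one that presents peptide to CD8 T cells, and its brightest probe (chr17:33606564-33606623, mm8, minus strand) had log2 ratios of 0.43 and 0.023 with 10 ng/ml, -0.094 and -0.54 with 300 ng/ml, 0.74 and 0.68 with 1000 ng/ml, and -0.11 and -0.35 in Pax5sz2. The arrays of a comparison had the same sign, and their spread at 10 and 300 ng/ml was about as large as the mean. At 300 ng/ml the mean was -0.32 ± 0.32 and with 1000 ng/ml 0.71 ± 0.044 (SD, n = 2 arrays). Its other probes, at chr17:33609797-33609856 and chr17:33609987-33610233, gave ratios of -0.99 ± 0.017 and -0.90 ± 0.19 in Pax5sz2, where the brightest gave -0.23 ± 0.17. All 3 probes were below 0 in Pax5sz2 and with 300 ng/ml and above 0 with 1000 ng/ml, but they differed by more than 1.5-fold in size in Pax5sz2. With 10 ng/ml they disagreed in sign, at 0.23 for the brightest and at 0.13 and -0.090 for the others in the order above. Median centring turned the brightest probe to 0.099 with 300 ng/ml and to 0.39 in Pax5sz2. Class I heavy chain genes share long stretches of sequence, so a probe may read near-identical copies, and which copies each probe reads was not tested.

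H2-T23 encodes Qa-1, a non-classical heavy chain that binds the NK receptor CD94/NKG2A. Its ratios were 0.33 and 0.14 with 10 ng/ml, 0.036 and -0.26 with 300 ng/ml, 0.97 and 0.53 with 1000 ng/ml, and -0.58 and -0.54 in Pax5sz2. The 2 arrays disagreed in sign with 300 ng/ml, where median centring turned the mean from below 0 to 0.22. In Pax5sz2 they lay close together, with a mean of -0.56 ± 0.026 (SD, n = 2 arrays), which median centring moved to -0.010.

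Of 10 tested genes on a list of other class I heavy chains, 0 were past the size at 10, 300 or 1000 ng/ml and 1 was in Pax5sz2, with 0 past a limma test. The list's medians were 0.16 with 10 ng/ml, -0.23 with 300 ng/ml, 0.64 with 1000 ng/ml and -0.62 in Pax5sz2. H2-Q8 was the gene past the size, higher in Pax5sz2 at 1.63 ± 0.21. It lay at -0.49 ± 0.0054 with 10 ng/ml and -0.80 ± 0.17 with 300 ng/ml, and with 1000 ng/ml as labelled it was at least 1.29-fold higher, since clone 4 without doxycycline was not well above background for it there. Other members of the list lay the other way in Pax5sz2: H2-Q2 at -0.62 ± 0.047, H2-Q10 at -0.70 ± 0.0016 and H2-Bl at -1.003 ± 0.19. Other probes of H2-Q10 there ranged from -1.02 to 0.036. Among 9 tested class I-like molecules, 2 were past the size, both higher in Pax5sz2: Cd1d1, which presents lipids to NKT cells, at 1.68 ± 0.22, and Raet1e, a ligand of the NK receptor NKG2D, at 1.34 ± 0.28. The class I-like medians were 0.011, 0.054 and 0.041 from the low to the high dose and 0.17 in Pax5sz2.

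B2m, the light chain that every class I heavy chain needs at the surface, was the member that differed in sign from most others in Pax5sz2. Its brightest probe (chr2:121844106-121844165, mm8, plus strand) had ratios of -0.44 and -0.72 with 10 ng/ml, -0.65 and -0.83 with 300 ng/ml, 0.42 and 0.67 with 1000 ng/ml, and 0.095 and 0.088 in Pax5sz2. The arrays at 10 and 300 ng/ml were all below the control, with means of -0.58 ± 0.20 and -0.74 ± 0.13 (SD, n = 2 arrays), and median centring left both below 0, at -0.14 and -0.37. Over those 2 doses, without the 1000 ng/ml comparison, the mean of B2m was -0.66 with a limma adjusted p of 0.0411, the 1 member among the 2876 features (14.4% of all) that then passed. With the 1000 ng/ml RNA as labelled the mean over 3 doses was -0.26 ± 0.31 (SE) with a limma adjusted p of 0.822.

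The second B2m probe, at chr2:121844230-121844286, followed the brightest, at -0.37 ± 0.010 with 10 ng/ml, -0.60 ± 0.098 with 300 ng/ml and 0.090 ± 0.12 in Pax5sz2. Its spot was an outlier on 1 array with 1000 ng/ml, and the other array gave 0.43. The third probe, upstream at chr2:121840304-121840363 and listed with a clone sequence rather than the reference transcript, gave -0.59 ± 0.047, -0.87 ± 0.16 and 0.71 ± 0.36 from the low to the high dose. In Pax5sz2 it gave -0.57 ± 0.093, so there the probes of B2m disagreed in sign.

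**Figure D3:**
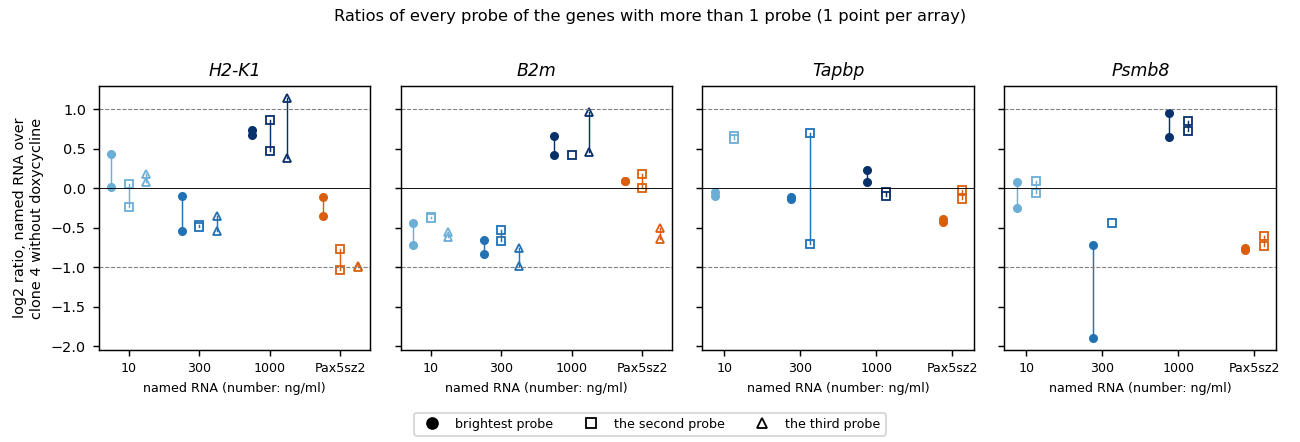
Log2 ratios on each array for every probe of the 4 genes with more than 1 probe (filled circle, brightest probe; square and triangle, the others), by named RNA over clone 4 without doxycycline; dashed lines mark 2-fold. In Pax5sz2 the H2-K1 probes lie at -0.23, -0.90 and -0.99 and the third B2m probe at -0.57, apart from the other B2m probes near 0.09.

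Tap1 and Tap2 encode the paired chains of the peptide transporter. Tap1 (chr17:33804121-33804180, mm8, plus strand) had ratios of 0.19 and 0.83 with 10 ng/ml, 0.029 and 0.020 with 300 ng/ml, 1.11 and 0.52 with 1000 ng/ml, and -0.96 and -0.67 in Pax5sz2. It was above the control on all 6 arrays with doxycycline in clone 4 and below it on both Pax5sz2 arrays, under loess. In the processed signals 1 of the 300 ng/ml arrays was below, at -0.084. The only Tap1 probe lies in row 204 of 206, in the outer rows at the other end of the array, whose bright spots were not examined apart. The mean over the 3 doses was 0.45 ± 0.19 (SE), with a limma adjusted p of 0.701. The difference between that mean and Pax5sz2 was 1.26 ± 0.37 (SE), with a limma unadjusted p of 0.0353 and an adjusted p of 0.631, so it did not pass. An unadjusted p under 0.05 was reached by 7.20% of all features in that contrast.

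Tap2 (chr17:33825052-33825639, mm8, plus strand) had ratios of 0.23 and 0.49 with 10 ng/ml, -0.37 and -0.19 with 300 ng/ml, 1.39 and 1.40 with 1000 ng/ml, and -0.79 and -0.36 in Pax5sz2. It was the member with the highest ratio with 1000 ng/ml, 1.39 ± 0.0074, and the next was Tap1 at 0.81 ± 0.42 (SD, n = 2 arrays). With median centring 0 members were past the size with 1000 ng/ml, although the mean of Tap2 was 1.31.

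Tapbp encodes tapasin, which bridges the transporter and the heavy chain. Its brightest probe had ratios of -0.10 and -0.042 with 10 ng/ml, -0.11 and -0.13 with 300 ng/ml, 0.23 and 0.075 with 1000 ng/ml, and -0.42 and -0.39 in Pax5sz2. At the 3 doses every array lay within 0.23 of the control, and median centring turned the means to 0.24 with 10 ng/ml and 0.10 with 300 ng/ml. The Pax5sz2 mean of -0.41 ± 0.019 (SD, n = 2 arrays) had a limma adjusted p of 0.514, and 0.0454 with the 8 arrays entered as 8 samples, which counts technical arrays as replicates; with median centring it was 0.079. A much dimmer probe of Tapbp gave 0.64 ± 0.031 with 10 ng/ml, so the 2 Tapbp probes disagreed in sign there. With 300 ng/ml the dimmer probe gave -0.71 on the first array and 0.70 on the other. Its spot lies in row 7, among the rows whose bright spots were low on that first array. Its processed signals with 300 ng/ml were 0.99 and 0.65.

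Among 14 tested genes of peptide loading and trimming, 1 was past the size, with 300 ng/ml: Lap3, a leucine aminopeptidase, higher at 1.13 ± 0.014, with other probes at 0.75 and 1.22. Lap3 lay at 0.71 ± 0.089 with 10 ng/ml, -0.80 ± 0.22 with 1000 ng/ml and 0.60 ± 0.0058 in Pax5sz2. This list's medians were -0.033, -0.11 and 0.093 from the low to the high dose and 0.066 in Pax5sz2, and 0 of its genes passed a limma test.

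Psmb8 and Psmb9 encode the catalytic subunits that replace constitutive ones in the immunoproteasome, and Psme1 a subunit of its PA28 activator. Psmb8 had ratios of 0.077 and -0.25 with 10 ng/ml, -1.89 and -0.72 with 300 ng/ml, 0.95 and 0.65 with 1000 ng/ml, and -0.78 and -0.75 in Pax5sz2. Its 300 ng/ml mean, -1.30 ± 0.83 (SD, n = 2 arrays), was the lowest ratio of any member, and its spread was the widest. The spot lies in row 3 of 206, among the rows whose bright spots were low on that array, and the processed signals there were 0.015 and -0.80. The second Psmb8 probe was an outlier spot on that array and gave -0.44 on the other. In Pax5sz2 the probes lay at -0.77 ± 0.021 and -0.67 ± 0.087, and with median centring at -0.21 and -0.14.

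Psmb9 (chr17:33792517-33792576, mm8, minus strand), which shares the sequence printed above with Tap1, had ratios of 0.24 and 0.084 with 10 ng/ml, -0.34 and -0.28 with 300 ng/ml, 0.53 and 0.53 with 1000 ng/ml, and -0.069 and -0.14 in Pax5sz2. Tap1 and Psmb9 had unlike ratios in Pax5sz2, -0.81 ± 0.21 and -0.10 ± 0.047 (SD, n = 2 arrays), and the difference between these genes was not tested. Median centring turned Psmb9 to 0.44 in Pax5sz2 and left Tap1 below 0, at -0.47.

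Psme1 (chr14:54535428-54535487, mm8, plus strand) had ratios of -0.34 and -0.47 with 10 ng/ml, -0.59 and -0.66 with 300 ng/ml, 0.28 and 0.49 with 1000 ng/ml, and -0.40 and -0.38 in Pax5sz2. Together with B2m and Tapbp it was below the control on both arrays at 10 and 300 ng/ml, and its own means there were -0.40 ± 0.093 and -0.62 ± 0.050 (SD, n = 2 arrays). Median centring moved these means to -0.0079 and -0.29, and the Pax5sz2 mean to 0.18. The spot of Psme1 lies in row 9, among the rows whose bright spots were low on the first 300 ng/ml array. Its processed signals with 300 ng/ml were -0.57 and -0.42, so it changed little on that first array and mainly on the second.

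Of 7 tested genes for other immunoproteasome and activator subunits, 0 were past the size in any comparison; their medians were 0.19, -0.12 and -0.096 from the low to the high dose and -0.081 in Pax5sz2. Psme2, the partner of Psme1 in PA28, lay at 0.63 ± 0.35 with 10 ng/ml and -0.34 ± 0.90 with 300 ng/ml. Psme4, another proteasome activator, lay at -0.54 ± 0.29 and -0.53 ± 0.23 at those doses. Of 14 constitutive core subunits, 0 were past the size, and their medians were 0.19, 0.24 and -0.073 from the low to the high dose and 0.11 in Pax5sz2. Psma5, an alpha ring subunit, lay at 0.65 ± 0.21 with 300 ng/ml and 0.55 ± 0.15 in Pax5sz2, and Psmb2, a beta ring subunit, at -0.47 ± 0.075 and -0.62 ± 0.22.

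Over the 3 doses as labelled, 0 of 20002 features passed the limma test of the mean doxycycline effect (0% at an adjusted p under 0.05; 1186 at an unadjusted p under 0.05, 5.93%). The members' limma adjusted p ran from 0.701 for Tap1 to 0.972 for Tapbp. For the Pax5sz2 effect, which borrows the spread of the doses, 0 features passed (2106 unadjusted, 10.5%), and the members' adjusted p ran from 0.514 to 0.976. For the difference of the doses from Pax5sz2, 0 passed (1441 unadjusted, 7.20%), and the members' adjusted p ran from 0.631 to 1.00. The intervals were wide: the 95% interval of the mean effect of Psmb8 was -1.61 to 1.22, and that of Tapbp, the narrowest, -0.27 to 0.25.

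The channel levels show, as labelled, which side of each ratio moved. Clone 4 without doxycycline was measured on all 8 arrays, and its log2 level of H2-K1 lay between 16.82 and 17.17 on the 6 arrays of the 10 ng/ml, 300 ng/ml and Pax5sz2 comparisons. On the 1000 ng/ml arrays the named RNA of H2-K1 lay at 16.79 and 17.10 and the control at 16.06 and 16.43. For Tap2 the 1000 ng/ml RNA lay at 12.01 and 12.24 and the control there at 10.63 and 10.85, whereas the control was between 11.82 and 12.17 on the 6 other arrays. For 5 of 9 members (H2-K1, H2-T23, B2m, Tap1 and Tap2) both control levels on the 1000 ng/ml arrays were below all 6 others, as they were for 19.1% of 19745 features measured on all arrays. For 2 members, Tap1 and Psmb9, both 1000 ng/ml levels were above all 6 of those control levels (16.1% of features). As labelled, the control RNA did not give 1 level for these genes across the arrays. With the 1000 ng/ml direction turned, the control there would lie at 16.79 and 17.10 for H2-K1 and 12.01 and 12.24 for Tap2. That direction is not settled, and the part of the scan batch was not tested.

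On the Pax5sz2 arrays the order of the channels differed between members. Tap1 was at 10.05 and 10.49 in Pax5sz2, against 11.01 and 11.16 for clone 4 without doxycycline on the same arrays. For Psmb8 those levels were 14.83 and 14.88 in Pax5sz2 and 15.61 and 15.64 in clone 4 without doxycycline. Over all 8 arrays as labelled, the control reached down to 10.19 for Tap1 and 14.82 for Psmb8, each time on a 1000 ng/ml array. Psmb8 in Pax5sz2 lay within that spread, as did Tap1 at 10.49, whereas Tap1 at 10.05 lay below it. Without the 1000 ng/ml arrays the lowest control levels were 10.77 for Tap1 and 15.26 for Psmb8, above their Pax5sz2 levels. For B2m the levels were 16.095 and 16.098 in Pax5sz2 and 16.000 and 16.010 in clone 4 without doxycycline.

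**Figure D4:**
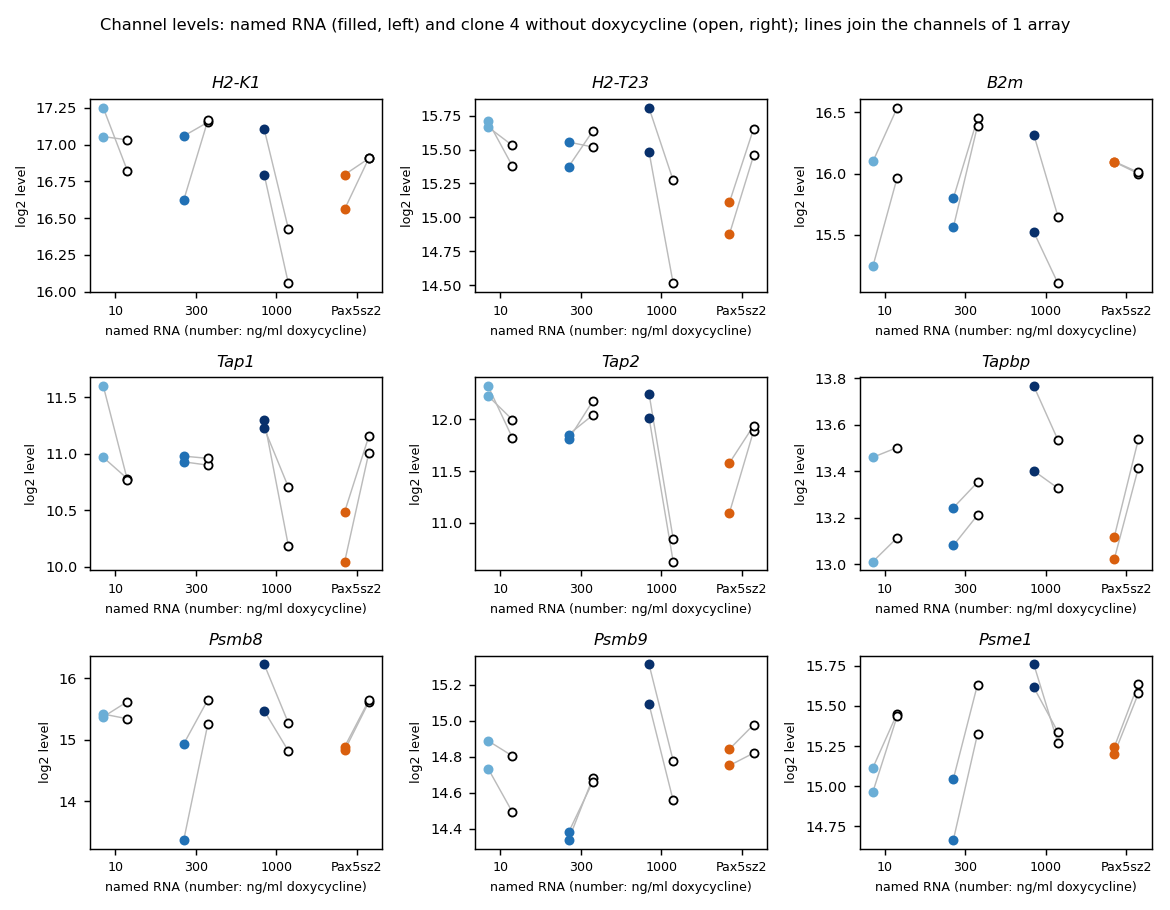
Log2 channel level of each pathway gene in the named RNA (filled, left) and in clone 4 without doxycycline (open, right), with lines joining the 2 channels of an array; each panel has its own axis and levels of different genes are not comparable. As labelled, the open circles of H2-K1, H2-T23, B2m, Tap1 and Tap2 sit lower with 1000 ng/ml than in the 3 other comparisons.

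The known regulators of the pathway and a set of interferon-induced genes were read beside it. Of 17 interferon-induced genes, the size was passed upwards by 9 with 10 ng/ml, by 10 with 300 ng/ml, by 1 with 1000 ng/ml and by 6 in Pax5sz2, and by 0 downwards. Of all features, 0.605%, 1.30%, 1.93% and 2.33% passed it upwards in that order, and 1.27%, 2.37%, 0.635% and 2.82% downwards. Isg15, a ubiquitin-like modifier, lay at 2.27 ± 0.14 with 10 ng/ml, 2.42 ± 0.18 with 300 ng/ml, -0.092 ± 0.27 with 1000 ng/ml and 1.30 ± 0.10 in Pax5sz2. Iigp1, an interferon-inducible GTPase, lay at 2.13 ± 0.16, 2.65 ± 0.31 and -0.22 ± 0.32 from the low to the high dose and at 3.49 ± 0.092 in Pax5sz2. The medians of these 17 genes were 1.11, 1.26 and -0.033 from the low to the high dose and 0.90 in Pax5sz2, beside the pathway members' 0.16, -0.31, 0.71 and -0.41. Usp18, which removes ISG15 from proteins, lay at 2.94 ± 0.10, 1.95 ± 1.4 and -0.80 ± 0.0062 and at 2.39 ± 0.050 in Pax5sz2, and Ifit3, an antiviral gene, at 1.94 ± 0.059, 2.32 ± 0.19 and -0.31 ± 0.093 and at 1.09 ± 0.11.

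Of 24 tested regulators, 1 was past the size with 10 ng/ml, 1 with 300 ng/ml, 1 with 1000 ng/ml and 1 in Pax5sz2, higher each time. Irf7, which drives type I interferon genes, was past the size with 300 ng/ml at 1.09 ± 0.086, with means of 1.11 ± 0.28 with 10 ng/ml and 1.00 ± 0.37 with 1000 ng/ml. Ifngr1, a chain of the interferon gamma receptor, was at 1.75 ± 0.11 with 1000 ng/ml as labelled, and Irf2, which competes with IRF1 at IRF sites, at 1.31 ± 0.36 in Pax5sz2. The brightest probe of Irf1 lay between 0.27 and 0.61 in the 4 comparisons, and its second probe between -0.095, in Pax5sz2, and 0.43. Nlrc5, the class I transactivator, had no probe of that name among the features tested. The list's medians were 0.12, 0.12 and 0.16 from the low to the high dose and -0.11 in Pax5sz2.

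**Figure D5:**
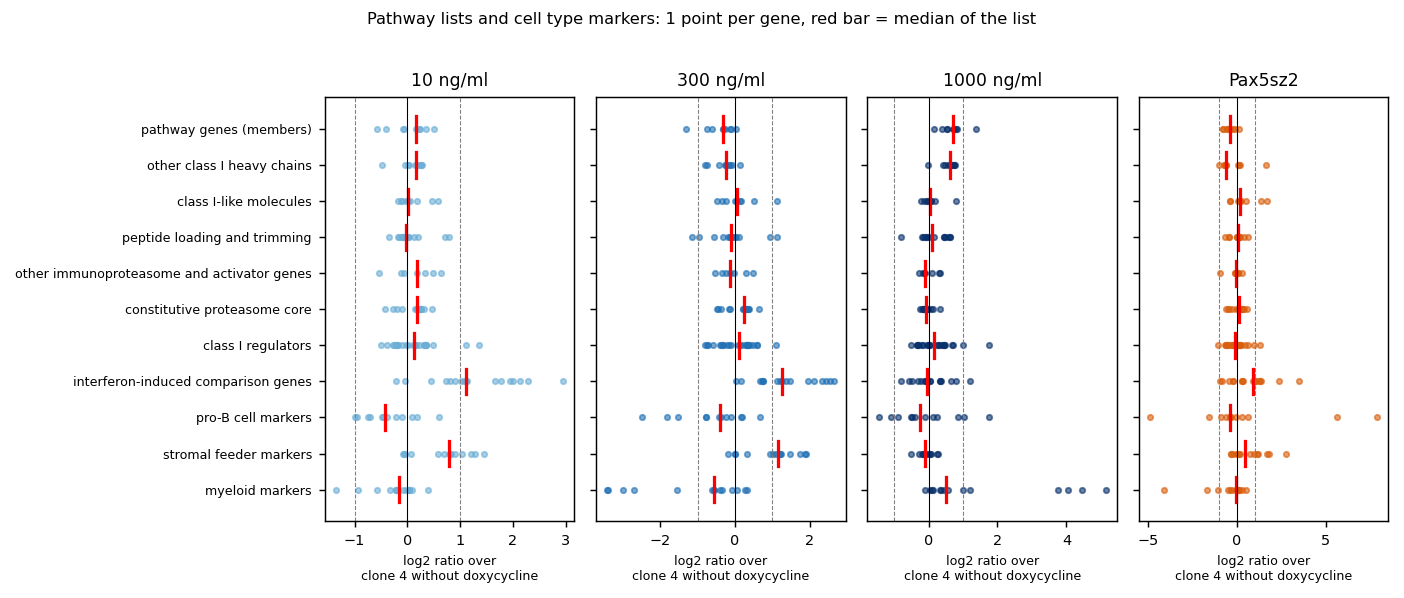
Log2 ratios of the pathway members, related lists and cell type marker lists (1 point per gene; red bar, median of the list) in each named RNA over clone 4 without doxycycline; dashed lines mark 2-fold and the axes differ between panels. The interferon-induced genes have medians of 1.11 with 10 ng/ml and 1.26 with 300 ng/ml, where the pathway members have 0.16 and -0.31.

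Genes listed as markers of other cells moved too, and whether their RNA came from other cells or from the pro/preB cells was not tested. In a mixed RNA fewer cells of a type and less RNA per cell cannot be told apart. Stromal feeder markers (14 tested) had medians of 0.80, 1.15 and -0.11 from the low to the high dose and 0.47 in Pax5sz2, with 3, 7, 0 and 5 past the size, all higher. Their summed log2 level was 15.41, 15.77 and 14.48 in clone 4 from the low to the high dose and 15.30 in Pax5sz2, against 14.43 to 14.53 in clone 4 without doxycycline. The chemokine gene Cxcl12 lay at 1.45 ± 0.013 with 10 ng/ml, 1.75 ± 0.27 with 300 ng/ml and 1.78 ± 0.12 in Pax5sz2. Myeloid markers (14 tested) had a summed log2 level of 12.93 with 300 ng/ml, against 15.47 in the control. With 1000 ng/ml as labelled it was 15.64, against 12.12 in the control. On the 10 ng/ml and Pax5sz2 arrays the control sum was 15.44 and 15.68. As labelled, the control was thus far lower on the 1000 ng/ml arrays alone, and their direction is not settled. Of the myeloid markers 1 was past the size and lower with 10 ng/ml, 5 were lower with 300 ng/ml, 5 higher with 1000 ng/ml as labelled and 3 lower in Pax5sz2. Fcer1g, the gamma chain of Fc receptors, lay at -0.57 ± 0.20, -3.41 ± 0.17 and 4.46 ± 0.046 from the low to the high dose and at -1.09 ± 0.043 in Pax5sz2. The myeloid medians were -0.15, -0.56 and 0.51 from the low to the high dose and -0.057 in Pax5sz2. The part of either cell type in the class I ratios was not tested.

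Pro-B markers (12 tested) were well above background for 10, 10 and 9 genes in clone 4 from the low to the high dose and for 12 in Pax5sz2. Vpreb1, a surrogate light chain gene that defines pro-B cells, was not well above background in either RNA with 300 ng/ml nor in the control with 10 ng/ml, although the label is pro/preB. On the Pax5sz2 arrays all 12 genes were well above background in clone 4 without doxycycline too, and the Vpreb1 ratio was 7.88 ± 0.94. Past the size were 0 pro-B markers at 10 and 300 ng/ml, 1 higher and 2 lower with 1000 ng/ml as labelled, and 2 higher and 2 lower in Pax5sz2. The Pax5sz2 genes were Vpreb1 and Igll1 (5.65), another surrogate light chain gene, above the control, and Dntt (-4.89), which adds bases at V(D)J joints, and Ebf1 (-1.58), an early B-lineage factor, below it. In Pax5sz2 other probes of these genes gave 0.98 for Igll1, -3.05 and -4.09 for Dntt and -0.25 for Ebf1. With 300 ng/ml Dntt had a usable value on 1 array only, at -2.48, so it could not pass the size. Its other probes there gave -2.44 and -2.43. The pro-B medians were -0.43, -0.40 and -0.25 from the low to the high dose and -0.37 in Pax5sz2. T and NK markers (7 tested) had medians of 0.015, -0.061 and 0.059 and of 0.14 in Pax5sz2, with 1 lower by the size with 300 ng/ml, 1 higher with 1000 ng/ml as labelled and 2 higher in Pax5sz2. These were Nkg7, a granule protein gene, at -2.46, 1.62 and 1.64 in that order, and Klrd1, the CD94 chain of the receptor for Qa-1, at 4.58 in Pax5sz2. Of the erythroid markers (4 tested) 0 were past the size, and the medians were 0.20, 0.077 and -0.0016 from the low to the high dose and 0.13 in Pax5sz2.

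Among 15021 features with a gene symbol outside the members, the pattern over the 4 comparisons closest to the members' median was that of Cryzl1, at a root mean square distance of 0.087 on the log2 scale. H2-K2, named as a class I heavy chain, followed at 0.092, then Cep131 at 0.092 and Pstpip1 at 0.10. H2-K2 lay at 0.25, -0.29 and 0.78 from the low to the high dose and at -0.54 in Pax5sz2. Likeness over 4 values that share a control is a description.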

How the data were processed

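Total RNA was hybridised on 8 dual-colour Agilent arrays (43790 spots, 2256 of them controls). Per the file headers, Agilent Feature Extraction 10.5.1.1 made the deposited scanner files, which hold mean spot intensity and median local background intensity per channel, and processed intensity values after background subtraction and dye normalization. The deposited series matrix holds log10 ratios, which were turned to log2 and used as an alternative. Per the submitters' processing notes the software was Agilent Feature Extraction.

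From these values, background was corrected by normexp with an offset of 50 and log2 ratios were normalized by loess within arrays (limma 3.58.1, R 4.3.3). Outlier spots (37 to 295 per array) were left out, and no spot was saturated. Ratios were turned to the named RNA over clone 4 without doxycycline and spots of a probe were averaged. Features entered the tests where, in at least 1 comparison, both arrays called the brightest probe well above background for the same RNA. Of 41174 probes, 33026 had a gene symbol. Probe coordinates are those of the files (mm8); without an mm8 annotation, exons and introns were not assigned. Channel levels were scaled by Aquantile.

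The 2 arrays of a comparison were averaged as 1 sample. The limma tests (two-sided, Benjamini-Hochberg over 20002 features) covered the mean of the 3 doses, Pax5sz2 and their difference; single comparisons have no test. All members were named. From each list the genes past a test or the size were named, up to 4, by the largest mean absolute ratio over the comparisons. Where none passed, the 2 largest by that measure were named. Irf1, H2-Q2, H2-Q10, H2-Bl, Cxcl12, Fcer1g and the pro-B, T and NK genes were named after their values were seen. The members, lists and motifs were chosen with earlier results of these data known. The steps were tested on simulated data. A few genes the naming rule picks are not reported here. Arrays being few, their number limits the precision. Figures used matplotlib 3.10.9.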

Additional observations from a re-analysis of the deposited data

Results flagged for a closer look

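For 3 of 9 members, 1 of the 8 log2 levels of clone 4 without doxycycline stood far below the others, each time on a 1000 ng/ml array: H2-T23 at 14.5 on the first, Tap1 at 10.2 on the first and Psmb8 at 14.8 on the second. Chance marks about 1 in 20 such groups where the 8 levels are independent. Here they are pairs of technical arrays, and the 1000 ng/ml pair was scanned in another batch, so that rate does not apply. The share of all features with such a level is not given. Both control levels on the 1000 ng/ml arrays were below the 6 others for 19.1% of features measured on all arrays. These levels hold as labelled, and the direction of the 1000 ng/ml arrays is not settled.

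Between doses, 13 of 27 pairs of ratios lay on opposite sides of 0 on all their arrays, beside 4.54% of all features between 10 and 300 ng/ml, 35.9% between 300 and 1000 ng/ml and 32.7% between 10 and 1000 ng/ml. These differences were not tested, and those with 1000 ng/ml depend on its unsettled direction. The ratio at 300 ng/ml minus that at 10 ng/ml was -0.54 for H2-K1, -0.64 for Tap2 and -0.47 for Psmb9. The ratio at 1000 ng/ml minus that at 300 ng/ml was 1.02 for H2-K1, 1.28 for B2m, 1.67 for Tap2, 0.27 for Tapbp, 2.11 for Psmb8, 0.85 for Psmb9 and 1.01 for Psme1. The ratio at 1000 ng/ml minus that at 10 ng/ml was 1.12 for B2m, 0.22 for Tapbp and 0.79 for Psme1.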

How the results depend on the processing

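No member passed a test under any alternative except B2m without the 1000 ng/ml comparison (mean effect -0.66) and Tapbp in Pax5sz2 with the 8 arrays as samples (-0.41); the cause was not tested for the changes below. Counts of features past limma's adjusted threshold for the mean doxycycline effect, Pax5sz2 and their difference were 2876, 729 and 0 without the 1000 ng/ml comparison, 0, 76 and 12 with its sign turned, and 337, 1844 and 835 with the 8 arrays as samples. The Pax5sz2 count was 3 with processed signals, 7 with the series matrix, 8 without the filter on dim probes, 4 with the mean over probes and from 0 to 3 when the first or the second array of each comparison was left out. Leaving out an array gave from 0 to 1 members past the size at 300 ng/ml and from 1 to 2 at 1000 ng/ml. The size then rests on 1 array, a looser rule than both arrays, and the share of all features under it is not given. The added members were Psmb8 at 300 ng/ml (-1.89) and Tap1 at 1000 ng/ml as labelled (1.11), each on the first array. At 1.5-fold, 3 members were lower at 300 ng/ml (B2m, Psmb8 and Psme1; 7.55% of all features), 3 higher at 1000 ng/ml (H2-K1, Tap2 and Psmb8; 4.78%) and 2 lower in Pax5sz2 (Tap1 and Psmb8; 7.55%). In the processed signals Psmb8 and Psme1, whose spots lie in the outer rows, did not reach 1.5-fold on both arrays at 300 ng/ml. Psmb8 changed mainly on the first array, the one with the low outer rows, and Psme1 mainly on the second. At 2-fold, median centring gave 0 members at 1000 ng/ml, and turning its sign made Tap2 the 1 lower member.

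Sign changes of the tested effects were as follows. The mean effect of Psmb8 was 0.10 with processed signals and with the series matrix and 0.12 without the outer 10 rows of spots, a choice made after seeing the data. That of Tapbp was 0.11 with median centring, 0.089 with the mean over probes and ran from -0.032 to 0.0067 when the first or the second arrays were left out. Median centring turned Pax5sz2 for H2-K1 (0.39), Tapbp (0.079), Psmb9 (0.44) and Psme1 (0.18) and the difference for Psmb9 (-0.16) and Psme1 (-0.23). The mean over probes turned B2m in Pax5sz2 (-0.13). Of the 36 single ratios, median centring turned 9, all to above 0: those Pax5sz2 ratios, H2-K1 (0.099), H2-T23 (0.22) and Tapbp (0.10) at 300 ng/ml, and Tapbp (0.24) and Psmb8 (0.31) at 10 ng/ml. Other settings turned Tap1 at 300 ng/ml (-0.019, processed signals and series matrix), Tapbp at 10 ng/ml (0.28, mean over probes), and H2-T23 at 300 ng/ml (0.036) and Psmb8 at 10 ng/ml (0.077) without the second arrays. Psmb8 at 10 ng/ml was 0.021 without the outer rows. With the 1000 ng/ml sign turned, the mean effect was -0.27 for H2-K1, -0.21 for H2-T23, -0.093 for Tap1, -0.44 for Tap2 and -0.23 for Psmb9, and the difference -0.038 for H2-K1, -0.13 for Psmb9 and -0.084 for Psme1. Without that comparison the mean effect was -0.046 for H2-K1 and -0.075 for Psmb9, and the difference -0.13 for Psme1. No paired analysis was possible because the array numbers mark dye orientation of 1 RNA sample, which was averaged. Without the outer rows only 7 members remained, since the only probes of Tap1 (row 204) and Psme1 (row 9) were left out.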

Other observations

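H2-D1 had no probe of its name. A probe listed with its reference transcript and with 2 other reference transcripts gave log2 ratios of 0.28 ± 0.065 with 10 ng/ml, -0.10 ± 0.15 with 300 ng/ml, 0.76 ± 0.37 with 1000 ng/ml as labelled and -0.64 ± 0.16 in Pax5sz2 (SD, n = 2 arrays). It cannot be assigned to H2-D1 alone. The spot of the second B2m probe lay at log2 levels of 12.1 in the 1000 ng/ml RNA and 11.7 in clone 4 without doxycycline on the 1 array of that comparison where it was kept, and between 14.2 and 15.7 in both RNAs on the 6 other arrays.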
